A study of Homo sapiens with 2 samples.

Results

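Small nucleolar RNAs (snoRNAs), the related small Cajal body RNAs and the non-coding genes that host them were compared between 2 Illumina bead arrays of HCT116 cells. Members were all genes whose platform symbol begins SNHG, SNORA, SNORD or SCARNA, plus GAS5, which gave 318 genes of the 20046 with a named probe. They comprised 16 SNHG genes, 101 SNORA, 176 SNORD and 24 SCARNA genes and GAS5. HCT116 is a human colorectal carcinoma line, labelled here as p53+/+, grown in serum-containing medium. One culture received control vehicle and the other SB590885, a RAF kinase inhibitor, at 10 nM, for a time the labels do not state. With a single array for either condition, values carry no replicate error, and every difference is one between these 2 arrays, with no test.

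Members were selected on their measured detection: one was kept, or called detected, when its detection p was under 0.01 on either array, which 132 of the 318 members were (41.5%). Of all 20046 genes 10430 were detected (52.0%), and all values below are normalized intensities in array units. Since detection on the arrays chose the members kept, shares and medians over them describe these arrays only. The members nearest the limit on the inside were SCARNA27, SNORD10, SNORA2C and SNORA80E, with a lower detection p of 0.0091. The nearest on the outside was SNORA5B at 0.0156. Of 9 epithelial markers 8 were detected, from CLDN4 at 134 and 139 to EPCAM at 4420.2 with vehicle and 6439 with SB590885. VIL1 (villin) was not detected. Of the leukocyte markers 2 of 10 with a probe were detected (CD68 and HLA-DRA), of the stromal markers 4 of 9, and of the endothelial and erythroid markers 1 of 7, at intensities from 110.3 to 289. Their part in the results was not tested.

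As background, most human snoRNAs are cut out of the introns of longer transcripts. Box C/D snoRNAs, the SNORD genes, guide ribose methylation of ribosomal RNA, and box H/ACA snoRNAs, the SNORA genes, guide its pseudouridylation. A few of them act in the cleavage of pre-ribosomal RNA instead. SCARNA genes encode guides of the Cajal body, which modify the small nuclear RNAs of the spliceosome. Host genes are either protein-coding, often for ribosomal or nucleolar proteins, or non-coding, as most SNHG genes and GAS5 are. The spliced exons of non-coding hosts are commonly degraded by nonsense-mediated decay. Many hosts begin with a C followed by a pyrimidine tract, the terminal oligopyrimidine (TOP) start of translation genes. The labelling kit primes on poly(A) tails, which mature snoRNAs lack. The column kit used for extraction also retains very short RNAs poorly. Whether a small RNA probe read the mature RNA, a precursor or a stretch of host intron was not tested.

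The start sites of SNHG genes are given first, since the SNHG class held the brightest and several of the most different members. Some of them carry a pyrimidine start, and others do not. RefSeq promoters (GRCh38.p14) were available for 11 of the 14 detected SNHG genes. SNHG6, SNHG9 and SNHG15 were not used here. Of these 11, 5 began at a C followed by further C or T letters, with at least 4 pyrimidines from the start on, against 5.45% of 27305 genes in the table. The letters TATAA stood within 50 bases before the start on the same strand in 4 of the 11, against 5.12% of all genes. On the opposite strand they stood there in 0 of the 11, against 2.71%. Both features together were found in 3 of the 11, SNHG5, SNHG7 and SNHG12, and in 0.179% of all genes. Neither feature was found in 5 of the 11. Of these, SNHG3, SNHG10, SNHG11 and SNHG17 had no C or T at the start at all, and SNHG10 is printed as an example of the 4. The 8 windows below hold the 50 bases before and the 50 from the annotated start, 5′ to 3′. Capitals mark TATAA before the start and the unbroken run of C and T that contains the first transcribed base.

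SNHG8 (chr4:118278712-118278811, plus strand): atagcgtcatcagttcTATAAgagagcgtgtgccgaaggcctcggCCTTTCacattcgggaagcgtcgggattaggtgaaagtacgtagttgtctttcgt
SNHG7 (chr9:136728135-136728234, minus strand): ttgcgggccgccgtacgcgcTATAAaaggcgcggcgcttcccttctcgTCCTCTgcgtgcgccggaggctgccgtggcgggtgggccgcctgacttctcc
SNHG5 (chr6:85678684-85678783, minus strand): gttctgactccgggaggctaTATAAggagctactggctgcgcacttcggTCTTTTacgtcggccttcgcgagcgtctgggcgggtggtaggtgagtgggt
SNHG12 (chr1:28581824-28581923, minus strand): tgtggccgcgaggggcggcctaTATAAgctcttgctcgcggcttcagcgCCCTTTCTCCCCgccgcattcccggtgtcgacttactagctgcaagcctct
SNHG32 (chr6:31834866-31834965, plus strand): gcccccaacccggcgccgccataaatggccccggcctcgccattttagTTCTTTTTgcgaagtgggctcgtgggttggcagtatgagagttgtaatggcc
SNHG4 (chr5:139274051-139274150, plus strand): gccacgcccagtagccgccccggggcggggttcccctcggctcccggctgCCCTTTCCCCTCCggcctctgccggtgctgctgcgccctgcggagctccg
SNHG10 (chr14:95534823-95534922, minus strand): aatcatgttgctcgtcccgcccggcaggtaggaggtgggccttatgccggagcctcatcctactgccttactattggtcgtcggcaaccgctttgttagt
SNHG1 (chr11:62855836-62855935, minus strand): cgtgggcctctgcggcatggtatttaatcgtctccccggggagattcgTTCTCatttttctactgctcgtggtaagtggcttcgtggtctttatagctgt

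SNHG8 and SNHG7 stand at the top of this set because their ratios, given next, were the 2 highest among SNHG genes with a promoter. SNHG5 and SNHG12 carry the same 2 features as SNHG7, with smaller ratios. In SNHG8 the pyrimidine run of 6 ended at the annotated start, with 1 pyrimidine from the start on, so it was not counted among the 5. In SNHG1 3 pyrimidines followed from the start, which also falls short of the 4 required. A match in letters describes these windows and is not evidence of a working site.

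SNHG genes were mostly higher with SB590885. Of 16 SNHG genes 14 were detected, 12 of them higher and 2 lower (11 of the 13 detected on both arrays higher), and the median log2 ratio was 0.20 (all detected genes -0.0008). At least 1.5-fold higher were 4 of the 14, where 1.51% of all detected genes were, and 0 were 1.5-fold lower, where 1.16% of all detected genes were. SNHG8, host of SNORA24, went from 609 with vehicle to 1807 with SB590885, a log2 ratio of 1.57 or 2.97-fold. SNHG9 went from 941 to 2359, or 2.51-fold. SNHG6, within which SNORD87 lies, went from 2894 to 4928, or 1.70-fold, and was the brightest member on the SB590885 array. These 3 genes were read by 1 probe each, so no second probe repeats the difference.

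SNHG7, host of SNORA17A and SNORA17B, is the SNHG gene past 1.5-fold with several probes. Its brightest probe went from 1459 to 2202, or 1.51-fold. The other probes went from 538 to 731 (0.44 on the log2 scale) and from 172 to 175 (0.03). The dimmest probe, closest to background, thus showed almost no difference. With background correction its log2 ratio was still 0.07, beside 0.63 for the brightest, so the probes differ from each other. SNHG15 went from 884 to 1117 by its brighter probe and from 677 to 921 by the other, with log2 ratios of 0.34 and 0.44. SNHG5, which hosts box C/D snoRNAs, went from 2739.8 to 3149 and, by its second probe, from 1428 to 1612, log2 ratios of 0.20 and 0.17. SNHG32, host of SNORD48 and SNORD52, went from 3261 to 3719 (0.19), and its dim second probe from 140.1 to 171 (0.28). For each of these 4 genes all detected probes had the same sign.

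**Figure D1:**
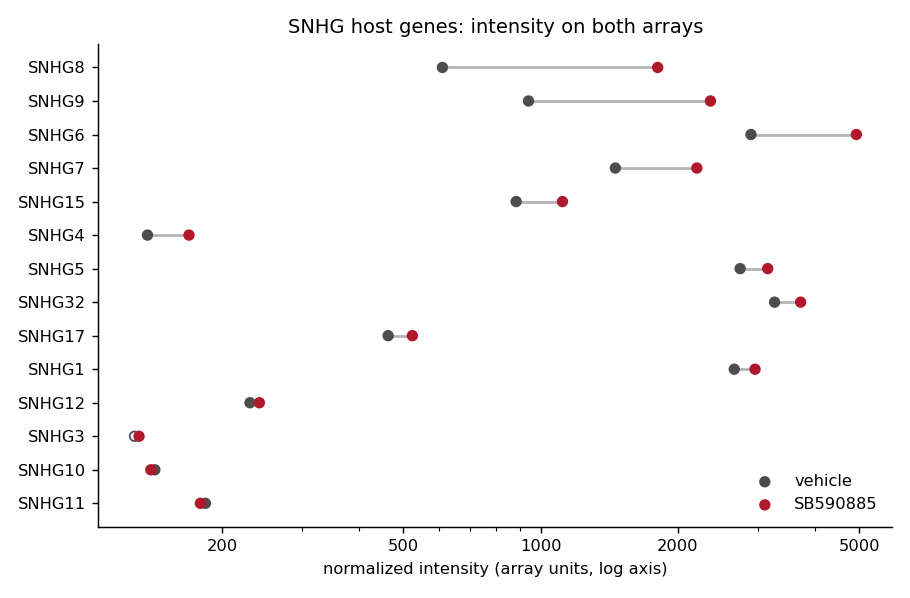
Normalized intensity (array units, log axis) of the 14 detected SNHG genes on the vehicle array (grey) and the SB590885 array (red), ordered by ratio, 1 array per condition; an open point is not detected on that array. SNHG8, SNHG9, SNHG6 and SNHG7 lie farthest apart, and only SNHG10 and SNHG11 are lower with SB590885.

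The remaining SNHG genes differed less. SNHG4 went from 137 to 169 (0.30), SNHG17 from 463 to 524 (0.18) and SNHG1, the host of a row of box C/D snoRNAs, from 2660.1 to 2954 (0.15). SNHG12 went from 231 to 242 (0.07). SNHG11 and SNHG10, with log2 ratios of -0.04 and -0.03, were the only SNHG genes lower with SB590885. SNHG3 was detected on the SB590885 array only, at 132. SNHG20 and SNHG28 were detected on neither array. GAS5, the non-coding host of a set of box C/D snoRNAs, was also below the limit, at 119 with vehicle (detection p 0.17) and 113 with SB590885 (0.451), by its single probe.

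The ratios depended on the background left in the deposited values. With background correction SNHG8 was 3.34-fold, SNHG9 2.68-fold, SNHG6 1.73-fold and SNHG7 1.55-fold higher, and SNHG4 reached 1.80-fold. Hence 5 of the 14 were then at least 1.5-fold higher, where 5.16% of all detected genes were. The SNHG median was 0.21 after correction, below those of SCARNA (0.42) and SNORA (0.23). In the deposited values the SNHG median was above both. All these medians take members detected on 1 array at their measured values, not at a bound. Detected with SB590885 only were 13 of the 50 SNORA, 4 of the 11 SCARNA and 1 of the 14 SNHG genes. The order after correction thus rests in part on members kept through the array where they are higher. With detection required on both arrays the SCARNA and SNHG medians of the deposited values were both 0.20. By count alone, the class with the most members past 1.5-fold also turned, from SNHG with 4 to SNORA with 9. The SNORA class is larger, and as a share of detected genes it stayed below SNHG after correction. The shares were then 9 of 50 for SNORA, 5 of 14 for SNHG and 4 of 11 for SCARNA.

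Box H/ACA snoRNAs were mostly slightly higher. Of 101 SNORA genes 50 were detected, 41 of them higher and 9 lower (28 of the 34 detected on both arrays higher), with a median log2 ratio of 0.11. SNORA12 alone passed 1.5-fold, 1 of the 50 (2.0%), near the 1.51% of all detected genes. It went from 459 to 1393, or 3.03-fold, and was the 7th highest of the 10430 detected genes. The next highest SNORA gene was SNORA67, which went from 377 to 537, a log2 ratio of 0.51. SNORA73B, a copy of the U17 RNA that acts in pre-ribosomal RNA cleavage, went from 186 to 259.8 (0.49), and by its second probe from 170.1 to 233 (0.45). Its near-identical copy SNORA73A went from 197 to 238 (0.27). SNORA70 went from 407 to 557 (0.45) and SNORA57 from 181 to 243 (0.42). SNORA61, the brightest SNORA gene with vehicle at 1168, was at 1256 with SB590885 (0.11).

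The lower SNORA genes detected on both arrays differed little from vehicle in the deposited values. For those detected with vehicle only, the values give a least difference and no upper limit. SNORA66 was detected with vehicle only, at 138, and was at least 1.07-fold lower. SNORA72 was likewise detected with vehicle only, at 145, and was at least 1.12-fold lower. SNORA16A went from 176 to 157 (-0.16) and SNORA41 from 189 to 171 (-0.14). With background correction 9 of the 50 were at least 1.5-fold higher and 0 lower, where 5.16% and 4.63% of all detected genes were.

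The 7 Cajal body RNAs detected on both arrays were all higher with SB590885. Of 24 SCARNA genes 11 were detected, with a median log2 ratio of 0.16. The other 4, SCARNA11, SCARNA18, SCARNA22 and SCARNA27, passed the filter through the SB590885 array only, which favours a higher value there. SCARNA27 was under the lowest intensity detected with vehicle, so it has no bound. The U92 RNA gene SCARNA8 went from 158 to 339, or 2.15-fold, and with background correction 3.98-fold, the highest corrected ratio among the members. SCARNA13, the U93 RNA, went from 309.9 to 623, or 2.01-fold. SCARNA11, not detected with vehicle, reached 176 with SB590885, at least 1.33-fold higher. The other 8 lay between log2 ratios of 0.03 and 0.22. SCARNA9 went from 168 to 193 (0.20) and SCARNA10, the U85 RNA, from 300.4 to 335 (0.16). SCARNA levels with vehicle were low, under 200 for 9 of the 11, as were those of 36 of the 50 detected SNORA genes. The SCARNA median was 0.42 after correction. That is the value of SCARNA18, detected with SB590885 only, whose corrected log2 ratio at its bound was 0.10. How far background compressed these ratios was not tested.

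Box C/D snoRNAs went both ways. Of 176 SNORD genes 57 were detected, 34 of them higher and 23 lower (30 of the 49 detected on both arrays higher), with a median log2 ratio of 0.03. Past 1.5-fold were 2 of the 57 (3.51%), beside 1.51% of all detected genes. They were SNORD3A and SNORD3D, both copies of the U3 RNA, which is needed for the early cleavages of pre-ribosomal RNA. SNORD3A went from 261 to 406, or 1.55-fold, SNORD3D from 339 to 510.2, or 1.51-fold, and SNORD3C from 149 to 185, a log2 ratio of 0.31. These copies are nearly identical, so their probes may read each other's RNA, and the 3 values are not independent. Next came SNORD65 (0.43), SNORD48 (0.41) and SNORD104, the brightest SNORD gene, which went from 554 to 710.2 (0.36).

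The lowest SNORD genes were about as far from vehicle as the next highest ones. SNORD31 went from 331 to 266, a log2 ratio of -0.32. SNORD32A went from 164 to 134 (-0.29), SNORD36A from 471 to 387 (-0.28) and SNORD68 from 435 to 366 (-0.25). SNORD11 went from 157 to 133 (-0.24). With background correction 6 of the 57 were at least 1.5-fold higher (10.5%, beside 5.16% of all detected genes). SNORD32A and SNORD11, 2 of the 57 (3.51%), were at least 1.5-fold lower, near the 4.63% of all detected genes.

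**Figure D2:**
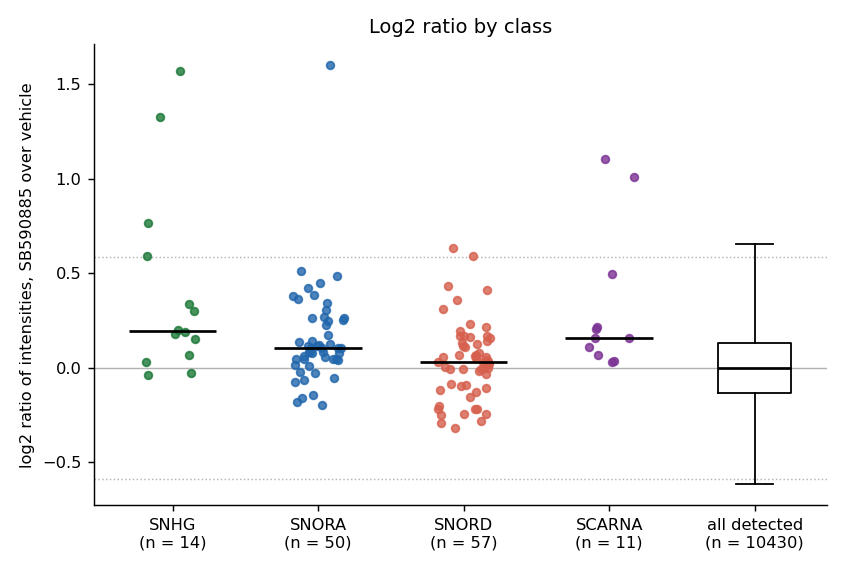
Log2 ratio of normalized intensity, SB590885 over vehicle, for each detected member by class; black bars are class medians (0.20 for SNHG, 0.11 for SNORA, 0.03 for SNORD and 0.16 for SCARNA). The box at right gives the median, quartiles and, as whiskers, percentiles 1 and 99 of all 10430 detected genes, and dotted lines mark 1.5-fold.

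Over all classes 98 of the 132 detected members were higher with SB590885, where 49.8% of all detected genes were. Among the 103 members detected on both arrays 76 were higher, where 48.0% of such genes were. At least 1.5-fold higher were 9 of the 132 (6.82%), beside 1.51% of all detected genes. At least 1.5-fold lower were 0, beside 1.16% of all detected genes. Of the 26 detected genes at least 2-fold higher (0.249%), 5 were members: SNORA12, SNHG8, SNHG9, SCARNA8 and SCARNA13. Of the 14 at least 2-fold lower (0.134%), 0 were. These shares were not tested, and members share hosts, sequence and labelling. In a bulk sample, fewer cells with an RNA and less of it per cell cannot be told apart.

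**Figure D3:**
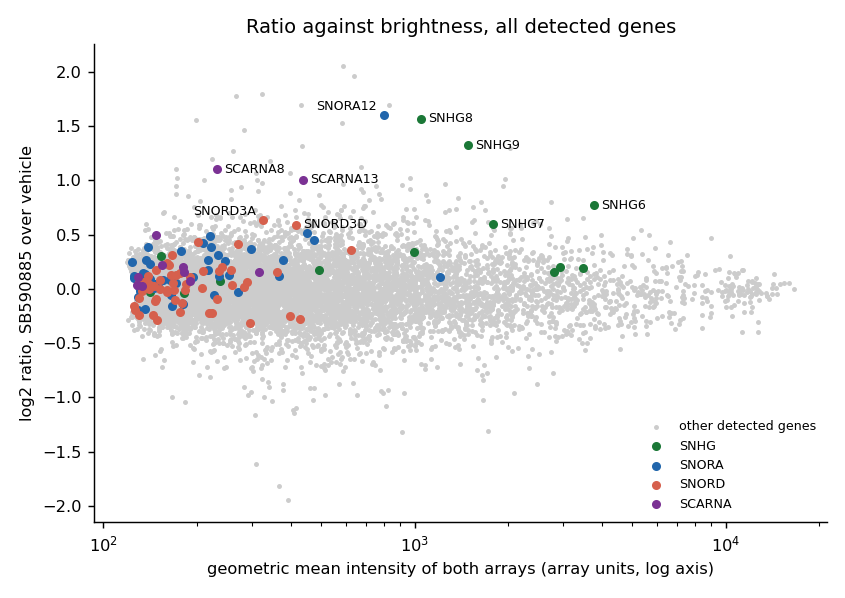
Log2 ratio, SB590885 over vehicle, against the geometric mean intensity of both arrays (log axis) for the other detected genes (grey) and the members by class, with the 9 members past 1.5-fold named. All 11 members with a mean intensity of 500 or more lie above 0.

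Members were set apart by brightness next, which largely coincides with class in the brightest range. Of the 11 members with a geometric mean intensity of 500 or more, 11 were higher, with a median log2 ratio of 0.36, while all 3037 genes of that brightness had a median of -0.03. However, 8 of the 11 were SNHG genes, and brightness and class cannot be told apart in this range. The mean includes the SB590885 value: 10 of the 11 were at 500 or more with vehicle alone, and SNORA12, at 459, was not. Of 40 members between 200 and 500, 32 were higher, with a median of 0.17, against -0.0045 for all 3629 such genes. Of 81 members under 200, 55 were higher (33 of the 52 detected on both arrays), with a median of 0.05, against 0.01 for all 3764 such genes. Members detected on 1 array only lay in this dim range. They were 22 with SB590885 only and 7 with vehicle only, beside 688 and 337 among all genes. With these members at their bound the median over all members was 0.07 instead of 0.09.

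**Figure D4:**
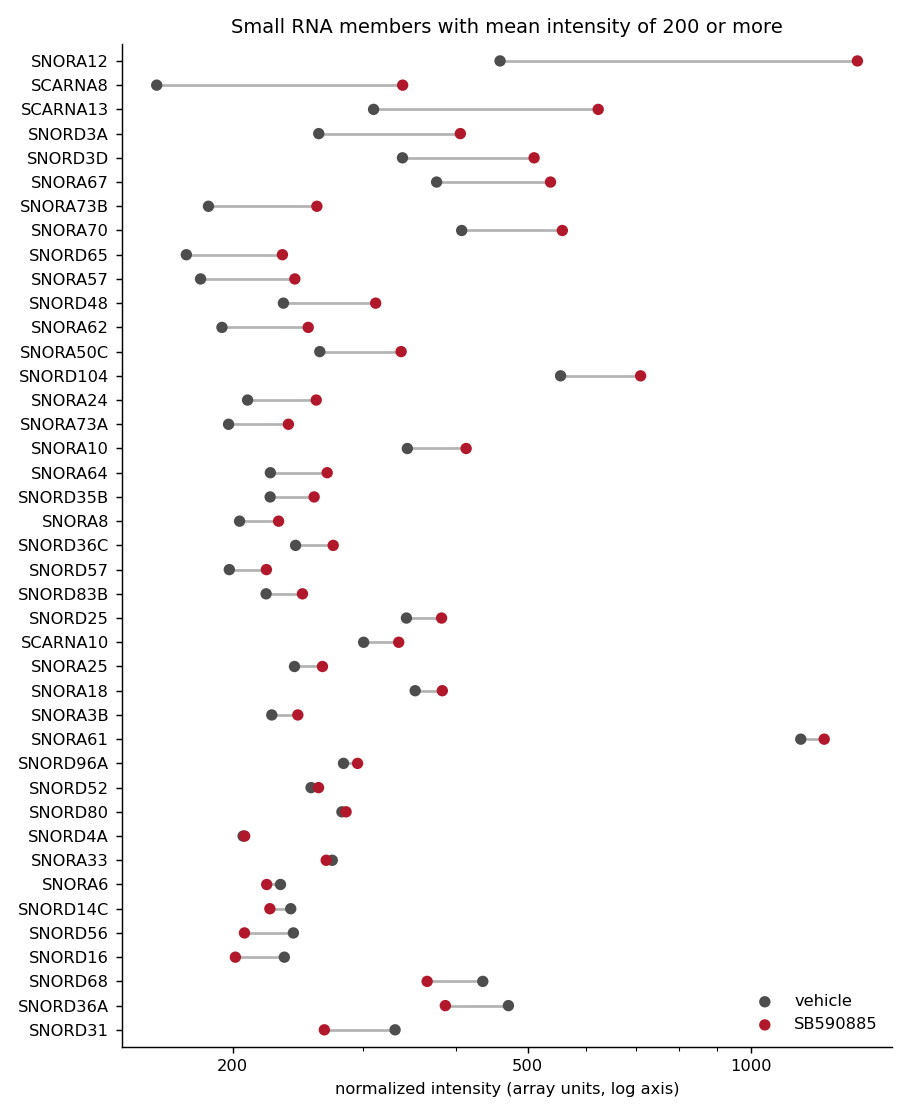
Normalized intensity (array units, log axis) of the 41 small RNA members with a geometric mean of 200 or more on the vehicle (grey) and SB590885 (red) arrays, ordered by ratio. SNORA12, SCARNA8 and SCARNA13 lie farthest apart, 33 of the 41 are higher with SB590885, and SNORD31, SNORD36A and SNORD68 are at the lower end.

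Small RNAs had the sign of the gene they lie in about as often as not. Of the 118 detected small RNA members 113 lay inside another annotated gene, and 91 of them inside exactly 1 detected gene, in 62 host genes. Placement was by position without regard to strand. In 47 of the 91 pairs (51.6%) small RNA and host had the same sign. Across pairs the log2 ratios had a Pearson r of -0.04 and a Spearman rho of 0.03. This is a description, since pairs share hosts and most small RNA probes were dim. SNORA12 lies in CWF19L1, a protein-coding gene that went from 1519 to 1199.7 with a log2 ratio of -0.34, opposite to its snoRNA. SCARNA8 lies in HAUS6, a subunit of the augmin complex of the spindle, which was at 139 with vehicle and, not detected, at 125 with SB590885 (-0.15). SCARNA13 lies in SNHG10, at 143 and 139.7 (-0.03). Conversely SNHG8, at 1.57, holds SNORA24, which went from 209.5 to 259 (0.31).

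**Figure D5:**
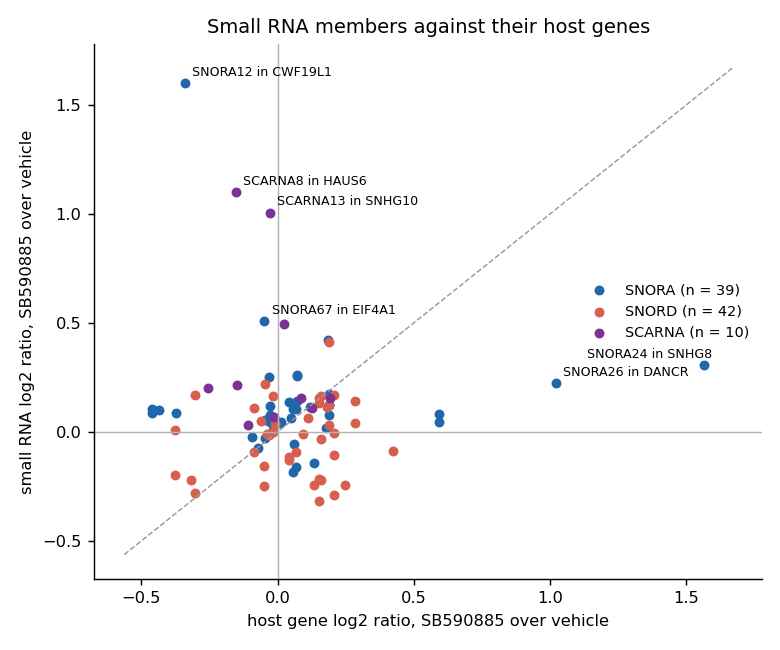
Log2 ratio, SB590885 over vehicle, of 91 small RNA members against that of the detected gene each lies in; the dashed line marks equal ratios. SNORA12, SCARNA8 and SCARNA13 lie high above hosts near or below 0, and SNORA24 lies far below its host SNHG8.

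Small RNAs inside 1 host shared a sign about as often as not. Of 19 hosts with several detected small RNAs, all of them had 1 sign in 9 hosts and both signs occurred in 10. Signs were counted at any size. RPL3 has both signs through SNORD139 at -0.0001, and RPL23A through SNORD4A at 0.0068. Over 2631 genes with several detected probes, the standard deviation of a single probe's log2 ratio was 0.17. Many ratios here and in the pairs above are smaller, so their signs are not resolved. In SNHG1, SNORD25 (0.16) and SNORD22 (0.13) were higher while SNORD30 (-0.22) and SNORD31 were lower, and the host itself was at 0.15. In RPL7A, a ribosomal protein gene at -0.30, SNORD36A was lower and SNORD36C (0.17) higher. In RPL13A, at 0.21, SNORD33 (0.17) was higher and SNORD32A, SNORD34 (-0.11) and SNORD35A (-0.01) lower. The 5 detected snoRNAs of TAF1D, a subunit of the polymerase I factor SL1, all lay between 0.08 and 0.17, beside 0.19 for the host. SNORD80 and SNORD76, inside GAS5, had log2 ratios of 0.02 each, and SNORD76 was detected with SB590885 only. SNORD3A, SNORD3C, SNORD3D, SNORD13 and SNORA50C were placed in no other gene.

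The non-coding hosts in these pairs were mainly the SNHG genes described above. Of 12 non-coding host genes 10 were higher, with a median log2 ratio of 0.18, where 49.8% of all detected genes were higher. Of these 12, 7 were SNHG members, 6 of them higher, and 5 lay outside the symbol rule, 4 of them higher. RPL32P3, counted among these 4, was kept through the SB590885 array only, at 131. That is under the lowest intensity detected with vehicle, so it has no bound. Among the hosts outside the rule DANCR, host of SNORA26, went from 676 to 1373, or 2.03-fold. ZFAS1, host of SNORD12 and SNORD12C, went from 2894 to 3528 (0.29), and C19orf48P, a transcribed pseudogene counted here as non-coding and host of SNORD88B, from 1232 to 1652 (0.42). Of 19 ribosomal protein hosts 9 were higher, with a median of -0.01, and of 31 other protein-coding hosts 14, with a median of -0.03. No protein-coding host in these pairs passed 1.5-fold in either direction. The small RNAs within the 3 kinds of host had medians of 0.05, 0.01 and 0.11.

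Genes for proteins of the snoRNA pathway showed no common shift in RNA. All 8 genes for core proteins of the 2 snoRNA-protein complexes were detected, 3 higher and 5 lower, none by 1.5-fold, with a median log2 ratio of -0.07. NOP58 and NOP56, of the box C/D complex, were highest at 0.25 and 0.16. SNU13, which binds the C/D motif, and DKC1, the pseudouridine synthase dyskerin, were lowest at -0.25 and -0.19. NOP10, of the box H/ACA complex, had -0.17. Of 14 assembly and trafficking factors 4 were higher and 10 lower, with a median of -0.07. NOLC1, the nucleolar and Cajal body chaperone Nopp140, went from 364 to 665, or 1.83-fold, and was the only one past 1.5-fold. Of all detected genes 1.51% were at least 1.5-fold higher. COIL, the Cajal body scaffold coilin, went from 886 to 728 (-0.28), PHAX, an export adaptor, from 389 to 306 (-0.35) and RUVBL1, an assembly ATPase, from 1431 to 1035 (-0.47).

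Decay factors stayed within 1.5-fold in the deposited values. Of 9 detected factors of RNA trimming and decay 1 was higher and 8 lower, with a median of -0.10, where 49.8% of all detected genes were higher. Among the 8, 1 was detected with vehicle only. TENT4B, the poly(A) polymerase that marks nuclear RNAs for trimming, was lowest, going from 521 to 374 (-0.48), and with background correction it was 1.53-fold lower. Of 9 detected nonsense-mediated decay factors 5 were higher and 4 lower, from UPF2 at 0.22 to SMG5 and SMG1 at -0.22, with a median of 0.01. Messages with a TOP start outside the ribosomal proteins had a median of -0.03 over 14 detected, 5 higher and 8 lower. NAP1L1 was the one past 1.5-fold, going from 1382 to 848 (-0.70), where 1.16% of all detected genes were at least 1.5-fold lower. The listed protein-coding snoRNA hosts had 22 of 41 higher, none by 1.5-fold, and a median of 0.02. In a list of abundant non-coding RNAs outside the symbol rule 8 of 12 detected were higher, with a median of 0.24, where 49.8% of all detected genes were higher. It is not a separate group, since it includes DANCR and ZFAS1, hosts counted above, and EPB41L4A-AS1, which contains SNORA13, all higher. DANCR alone of the 12 passed 1.5-fold, where 1.51% of all detected genes did.

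Most members were detected on neither array, and tandem snoRNA clusters were among them. The imprinted clusters SNORD115 and SNORD116, whose snoRNAs are known mainly from brain, had 0 of 7 genes detected, at vehicle intensities from 104 to 115. Of 24 genes of the imprinted clusters SNORD113 and SNORD114 only SNORD114-2 was detected, with SB590885 alone, at 132. Outside these clusters 56 of 145 SNORD genes were detected. A probe below the limit has no measured level here, so these genes give no ratio.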

How the data were processed

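Per the labels' protocols, total RNA of HCT116 cells was made into biotinylated cRNA and measured on Illumina bead arrays, 1 for each of 2 conditions. The authors deposited 3 tables of intensity values for 47318 probes. The normalized table was used. Its intensity values equal those of the series matrix, and the table deposited as non-normalized holds the same values times 1.025, so no raw signal was used. Its detection column, deposited times the same constant, was treated as a score and used for that check only. How the values were normalized is not given in the sources used here. Ranked by size, values of both arrays lie within 0.129 of each other. The deposited detection p-value, given per probe and array, was used as a filter (p under 0.01 on either array) and tests no difference. Background stays in the values (lowest 90.7), which compresses ratios of dim genes.

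Probes were named from GEO's platform annotation (30119 probes listed, 30111 with 1 gene), updated through Entrez identifiers with RefSeq GRCh38.p14. A gene with several detected probes was read from the brightest, by mean log2 intensity. In counts past a fold, a gene detected on 1 array counts at its bound against the lowest detected intensity of the other array. Signs and medians take its measured values unless a bound is named. The log2 ratio, SB590885 over vehicle, and counts past 1.5-fold are given. With 1 array per condition no difference was tested. Background-corrected values come from neqc of limma 3.58.1 (R 4.3.3) with offset 16. Small RNAs were placed in host genes by position in the RefSeq table, without regard to strand. The code that counts genes past a fold was run on simulated data, with 2-fold shifts put into bright vehicle intensities, all set as detected. That run checks the counting only and is no guide to dim members. Every detected member could be named, and from each gene list up to 4 members each way, highest and lowest. The members and the lists were chosen with earlier results of these data known. Alternatives were 2 background corrections, an added offset, 2 detection filters, probe means, updated symbols and a 2-fold rule.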

Additional observations from a re-analysis of the deposited data

How the results depend on the processing

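No paired analysis was possible because each condition has 1 array, and no result comes from a test. The medians kept their sign under the 8 alternatives run on them, from 0.18 to 0.21 for SNHG, 0.09 to 0.23 for SNORA, 0.03 to 0.09 for SNORD and 0.15 to 0.42 for SCARNA. For several alternatives this was fixed in advance. An added offset cannot change the sign of a ratio, and updated symbols named the same members. Probe means cannot alter SNORD or SCARNA, whose detected genes had 1 detected probe each. The kept signs are thus no measure of stability. With background correction by neqc, the SCARNA median was 0.42, 24 members were at least 1.5-fold higher (including all 9 found in the deposited values) and 2 lower, and 538 and 483 of all detected genes were. With median centring after that correction the values were 0.41, 22 and 2, and 513 and 509. With a 2-fold rule 5 members and 26 genes were higher, and 14 genes lower. Without the 5 members at least 2-fold higher, an alternative chosen after seeing the data, 4 members were at least 1.5-fold higher. That count follows from the removal itself and adds no support. Updated symbols gave the same 318 members. The other alternatives left each count within 1.5 times its value. A culture difference unrelated to the inhibitor and an effect of the inhibitor cannot be told apart with 1 array per condition. Most small RNA probes lie near background, which limits the size of their ratios.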

Other observations

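Several other structural RNAs on the arrays were higher with SB590885. RN7SL1, RPPH1 and RMRP are named after their values were seen. TERC, the telomerase RNA, which carries a box H/ACA domain, went from 219 to 317, a log2 ratio of 0.53. RN7SK, the RNA that holds P-TEFb inactive, went from 183 to 237 (0.37). RN7SL1, the signal recognition particle RNA, went from 6729 to 8370.1 (0.31). RPPH1 and RMRP, the RNAs of RNase P and RNase MRP, had 0.19 and 0.07. Among longer non-coding RNAs, TUG1 and OIP5-AS1 were lower, at -0.12 and -0.23. EPB41L4A-AS1, which contains SNORA13, went from 762 to 1078 (0.50).

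Small RNAs in common use as PCR normalizers differed from each other on these arrays, and were looked up after the values were seen. SNORD48 was 1.33-fold higher with SB590885, SNORD96A went from 282 to 295 (0.06), and SNORD68 had a log2 ratio of -0.25. SNORD44, SNORD47, SNORD61, SNORD72 and SNORD95 were detected on neither array.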
